A study of Mus musculus with 4 samples.

Results

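The colon of germ-free C57BL/6 mice gavaged with Lactobacillus rhamnosus GG (LGG) was compared with the colon of untreated germ-free mice. The comparison rests on 2 of the 4 libraries of the study, 1 per condition, and on the 14450 of 24016 listed genes whose mean over the 4 libraries reached 1 CPM, the count scaled to library size. At that edge, Fibcd1 stood just outside the filter with a mean of 0.999 CPM, and Tbc1d22bos just inside it with 1.00093 CPM. The mice were 7 weeks old and carried no transgene or deletion in the labels. The LGG mice received the bacteria by mouth at the dose the labels call 2 x10E9, and a piece of colon of 4 cm was taken 4 h later. The other gavage groups received PBS, the vehicle, or E. coli. Each gavage group had 4 mice, and the labels do not say how many untreated mice there were, at what time of day tissue was taken, or whether a library came from 1 mouse or from a pool. Mice without a resident microbiota have an immature mucosal immune system, which limits them as a model of a colonised colon.

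LGG is a Gram-positive bacterium that is widely used as a probiotic. Bacterial products are sensed in the colon by epithelial and immune cells through Toll-like receptors, and contact with lactobacilli has been linked to the Nrf2 pathway, in which the transcription factor Nfe2l2 is released from its partner Keap1 and turns on genes of glutathione and thioredoxin metabolism. The colon also keeps time: its cells hold a circadian clock whose components follow the time of day and of feeding. Because 1 library stands for each condition, no test between conditions was possible and no p-value is given. Each log2 ratio below is LGG over untreated unless another pair is named. It carries a 95% counting interval, which covers the error of counting reads and neither the spread between mice nor that between libraries.

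Total counts were 27220697 in the untreated library and 29899371 in the LGG library, and 16289580.0 and 29368008 in the PBS and E. coli libraries. The 4 libraries held colon RNA by their markers: Car1, a carbonic anhydrase of colonocytes, was at 3174 (untreated), 2916 (PBS), 2686 (E. coli) and 3623 CPM (LGG), and Muc2, the main mucin of goblet cells, at 10512 (untreated), 8281 (PBS), 8174 (E. coli) and 9719.9 CPM (LGG). Of the sex-linked list, Xist was at 600.3 (untreated), 627 (PBS), 620.4 (E. coli) and 573 CPM (LGG) and Tsix at 6.38 (untreated), 7.6 (PBS), 7.85 (E. coli) and 8.41 CPM (LGG); Tsix is antisense to Xist, and without stated use of strand their reads cannot be told apart. In bulk tissue, fewer cells of a type and less RNA per cell cannot be told apart.

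A gene was counted as past the size rule when it differed at least 2-fold with an interval that excluded 0. Of the 14450 genes, 151 were past it, which is 1.04%, with 66 higher (0.457%) and 85 lower (0.588%) in the LGG library. That 1.04% is also the share beside each list below with none past the rule. For lists of these sizes, none is near that share and is not a result about their genes. Scaling to library totals in place of TMM, a trimmed mean of the ratios, gave 54 higher and 133 lower, so that the share of higher genes went from 43.7% to 28.9%, with the median of all genes shifted by -0.0999. The median ratio over all genes was -0.0015, and 91.3% of genes lay within 0.5 of 0. Ratios were above 0 for 7181 genes and below 0 for 7269. Depth set how firmly a single gene could be read: of the 151 genes, 100 had a mean of 1 to 5 CPM, where the median interval was 1.01 wide, and 7 had at least 100 CPM, where it was 0.115 wide.

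**Figure D1:**
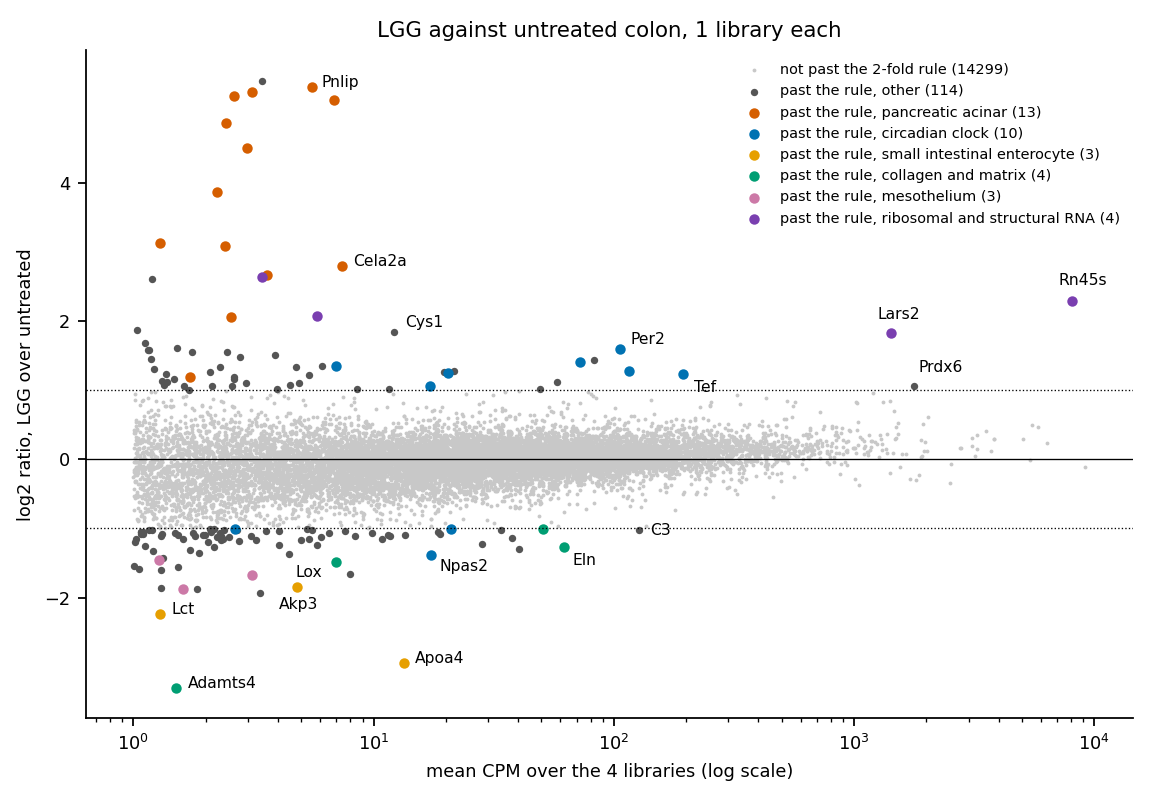
Log2 ratio of LGG over untreated (vertical axis) against the mean CPM over the 4 libraries (horizontal axis, log scale) for 14450 genes, 1 library per condition. Grey points are not past the 2-fold rule, dark grey and coloured points are, and dotted lines mark a 2-fold difference; acinar genes stand above the rest at the upper left, and Apoa4 and Adamts4 lie lowest.

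Genes of the circadian clock differed in both directions. The clock is a loop in which Clock, Npas2 and Arntl drive the Per and Cry genes, whose proteins then repress that drive, while Nr1d1 and Nr1d2 repress Arntl. Of 21 measured clock genes, 7 were higher past the rule and 3 lower, beside 1.04% of all genes. Ratios ran from -1.39 to 1.60 with a median of 0.63. Npas2, Arntl and Nfil3 were the low genes in the LGG library, and Per2, Per3, Bhlhe41, Hlf, Tef and Ciart were among the high ones.

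The start regions of these genes are shown because several members passed the rule together and the clock acts through short motifs. RefSeq start windows (GRCm38.p6) were found for 8 of the 10 genes past the rule. The upstream 250 bases were searched on both strands for the E-box CACGTG, to which Clock and Arntl bind, the D-box TTANGTAA, to which Tef, Hlf and Nfil3 bind, and the RORE core TAGGTCA, to which Nr1d proteins bind. Matches are in capitals in the stretches below.
Ciart, GRCm38.p6 chr3:95882235-95882374, minus strand: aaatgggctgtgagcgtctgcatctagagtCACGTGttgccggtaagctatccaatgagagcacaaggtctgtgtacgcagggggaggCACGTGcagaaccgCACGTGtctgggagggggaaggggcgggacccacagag
Bhlhe41, GRCm38.p6 chr6:145865536-145865603, minus strand: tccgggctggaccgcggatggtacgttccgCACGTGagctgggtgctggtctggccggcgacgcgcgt
Tef, GRCm38.p6 chr15:81802516-81802583, plus strand: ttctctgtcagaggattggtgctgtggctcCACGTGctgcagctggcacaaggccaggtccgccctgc
Tef, GRCm38.p6 chr15:81811246-81811313, plus strand: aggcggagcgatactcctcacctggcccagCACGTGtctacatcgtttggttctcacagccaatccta
Per3, GRCm38.p6 chr4:151044786-151044900, minus strand: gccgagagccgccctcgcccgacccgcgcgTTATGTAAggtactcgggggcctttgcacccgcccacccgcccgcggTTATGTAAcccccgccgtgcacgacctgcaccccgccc
Nfil3, GRCm38.p6 chr13:52981040-52981081, minus strand: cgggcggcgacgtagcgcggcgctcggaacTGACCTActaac
An E-box stood in the windows of 3 of the 8 genes (Ciart, Bhlhe41 and Tef), against 6.02% of 32851 windows. Among all 17 clock genes with a window it stood in 5, the other two being Cry1 (60 bases before the start) and Per1 (166 bases), neither of which was past the rule. Ciart held 3 of them, 116, 58 and 44 bases before the start. A D-box stood in 1 gene, Per3, with matches 205 and 158 bases before the start, against 2.06% of windows. The RORE core stood in 1 gene, Nfil3, 12 bases before the start, against 2.23% of windows. A looser form of that core with any base in the second place, TNGGTCA, which was the form searched first and which contains TAGGTCA, matched 4 of the 8 genes against 9.19% of windows; the stricter form was taken after both had been seen. These counts are of genes, whereas the shares are of windows. There were 32851 windows for 27025 genes, and 22 for the 17 clock genes. A gene with several windows has more chances of a match, so the counts and shares are not like for like. A match describes these letters and is not evidence of binding.

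Per2, a core repressor of the clock (NM_011066, mm9 chromosome 1, 93312559 to 93355905), was at 38.9 CPM without treatment and 118 CPM after LGG, beside 139 CPM with PBS and 128 CPM with E. coli, a log2 ratio of 1.6 (interval 1.5 to 1.7). The untreated library was the low one, and the 3 gavaged libraries lay together well above it. Its relative Per3, the gene with the D-boxes above, was at 31.1 CPM without treatment and 82.9 CPM after LGG, beside 81.6 CPM with PBS and 93.2 CPM with E. coli, a ratio of 1.41 (interval 1.3 to 1.52). Bhlhe41, a repressor that competes for E-boxes, was at 3.01 (untreated), 8.23 (PBS), 8.95 (E. coli) and 7.69 CPM (LGG), a ratio of 1.35 (interval 0.99 to 1.73). The untreated library was the lowest in all 3 genes.

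Of the output factors that bind D-boxes, Tef was at 92.4 (untreated), 229 (PBS), 238 (E. coli) and 217 CPM (LGG), a ratio of 1.23 (interval 1.17 to 1.3). Hlf was at 9.91 (untreated), 25.3 (PBS), 22.9 (E. coli) and 23.5 CPM (LGG), a ratio of 1.24 (interval 1.04 to 1.45). Their relative Dbp, at 41.4 (untreated), 90.6 (PBS), 99.1 (E. coli) and 81.2 CPM (LGG), had a ratio of 0.97 and fell just short of the rule. Ciart, a repressor of Clock and Arntl, was at 8.06 (untreated), 22.1 (PBS), 21.6 (E. coli) and 16.9 CPM (LGG), a ratio of 1.07 (interval 0.84 to 1.3). It was short of the rule with library totals and when ratios were centred within bins of transcript length (0.97 in both).

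In the activating arm, Npas2, a partner of Arntl, was at 29.5 CPM without treatment and 11.3 CPM after LGG, beside 14.8 CPM with PBS and 13.4 CPM with E. coli, a ratio of -1.39 (interval -1.58 to -1.2). Arntl itself was at 33.1 (untreated), 17.2 (PBS), 17.1 (E. coli) and 16.4 CPM (LGG), a ratio of -1.01 (interval -1.17 to -0.85). Nfil3, a repressor at D-boxes, was at 4.69 (untreated), 1.99 (PBS), 1.58 (E. coli) and 2.32 CPM (LGG), a ratio of -1.01 (interval -1.46 to -0.58), and was short of the rule with a prior of 5 counts (-0.96). In these 3 genes the untreated library was the high one. Clock, at 96.8 (untreated), 89 (PBS), 89.3 (E. coli) and 79.8 CPM (LGG), had a ratio of -0.28 and was not past the rule.

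The repressor Nr1d1 was at 174 (untreated), 132 (PBS), 148 (E. coli) and 89 CPM (LGG), a ratio of -0.97 (interval -1.04 to -0.90), and its relative Nr1d2 at 89.5 (untreated), 140.5 (PBS), 143 (E. coli) and 133 CPM (LGG), a ratio of 0.57 (interval 0.50 to 0.64). The ratios of the pair thus had opposite signs, and neither was past the rule. The other clock genes short of the rule and above 0 were Usp2 (0.99), Wee1 (0.80), Cry1 (0.63), Per1 (0.51), Cry2 (0.42) and Bhlhe40 (0.32), and Rora was at -0.27. For the clock list the list medians were 0.65 for PBS over untreated, 0.68 for E. coli over untreated and -0.093 for LGG over PBS. The first 2 share the untreated library with the main comparison. The labels do not state the time of day of each library, and its part in these values was not tested.

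**Figure D2:**
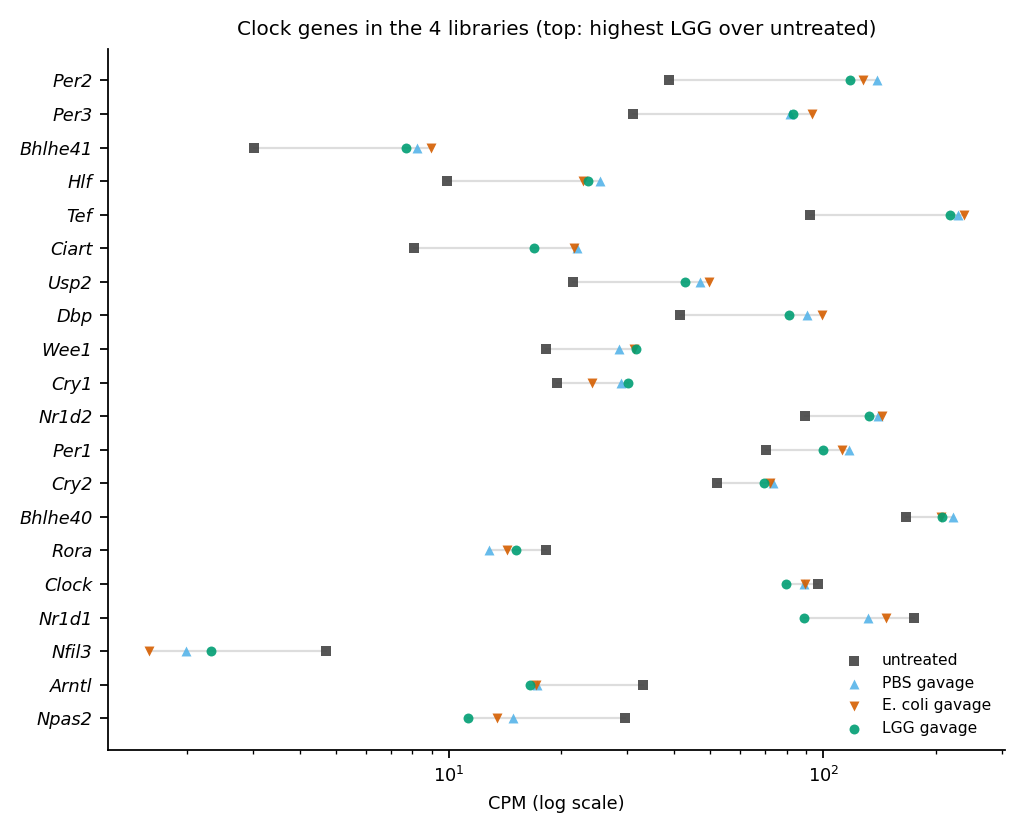
CPM (log scale) of 20 clock genes in the 4 libraries, 1 symbol per library, ordered by the ratio of LGG over untreated. For Per2 the untreated library is at 38.9 CPM and the gavaged libraries are at 118 to 139 CPM, and for Npas2 the untreated library is the highest.

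Digestive enzymes of the exocrine pancreas reached the largest ratios of the named genes. Of 19 measured acinar genes, 13 were higher past the rule and none lower, beside 0.457% of all genes higher, and 19 of 19 had a ratio above 0 and 0 below, with a median of 2.8. A further 8 listed genes fell below the filter. Of the 13 genes, 12 were under 1 CPM in the untreated library and passed the filter through the gavaged libraries, so a higher level was partly fixed by the filter and the tally supports nothing. With a mean CPM of at least 5, which 7 of the 19 measured genes reached, the list median was 0.58. Of the 13 genes past the rule, only Pnlip, Ctrb1 and Cela2a reached it, with means of 5.57, 6.84 and 7.4 CPM. Acinar cells are not part of the colon wall. The list without Zg16, a goblet cell gene that it also holds, summed to 268 CPM in the untreated library, 440 with PBS, 612 with E. coli and 425 with LGG over 26 genes, and Prss1 and Amy2a5 were at 0 in all 4 libraries. Most of that sum came from Cela1, at 119 (untreated), 195 (PBS), 236 (E. coli) and 178 CPM (LGG), and Sycn, at 132 (untreated), 205 (PBS), 265 (E. coli) and 179 CPM (LGG), neither of which was past the rule.

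Pnlip, pancreatic lipase (NM_026925, mm9 chromosome 19, 58744855 to 58756278), had 4, 46, 368 and 193 counts in the untreated, PBS, E. coli and LGG libraries, or 0.140 (untreated), 2.87 (PBS), 12.7 (E. coli) and 6.6 CPM (LGG). Its ratio was 5.39 (interval 4.18 to 7.45), and the interval is wide because the untreated library holds so few reads. Ctrb1, chymotrypsinogen, had 6, 71, 418 and 244 counts in the same order and a ratio of 5.2 (interval 4.17 to 6.77). Cpa1, a carboxypeptidase, had 2, 30, 206 and 102 counts and a ratio of 5.33 (interval 3.75 to 8.7). In these genes the E. coli library was the highest and the untreated library the lowest.

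Cel, a bile-salt-activated lipase, had 2, 17, 176 and 74 counts and a ratio of 4.87 (interval 3.27 to 8.25). The trypsinogens Try4, with 2, 28, 156 and 98 counts and a ratio of 5.27 (interval 3.69 to 8.64), and Prss2, with 4, 30, 183 and 104 counts and a ratio of 4.5 (interval 3.27 to 6.57), belong to a family of near-identical genes, so reads may be split between them and both are uncertain. The elastase gene Cela3b was at 0.175 (untreated), 1.62 (PBS), 4.34 (E. coli) and 2.8 CPM (LGG), a ratio of 3.87, and its relative Cela2a at 1.33 (untreated), 4.36 (PBS), 14.5 (E. coli) and 9.36 CPM (LGG), a ratio of 2.8. Both followed the same order of libraries. The lipase relative Pnliprp1 was at 0.350 (untreated), 1.25 (PBS), 4.89 (E. coli) and 3.11 CPM (LGG), a ratio of 3.09. Cpb1, another carboxypeptidase, was at 0.631 (untreated), 2.06 (PBS), 7.57 (E. coli) and 4.1 CPM (LGG), a ratio of 2.67, and the chymotrypsin-like Ctrl at 0.631 (untreated), 0.997 (PBS), 5.85 (E. coli) and 2.7 CPM (LGG), a ratio of 2.07. The E. coli library was again the highest and the untreated library the lowest in each. Rnase1, a secreted ribonuclease with close relatives in the genome, was at 0.175 (untreated), 0.748 (PBS), 2.55 (E. coli) and 1.67 CPM (LGG), a ratio of 3.14 (interval 1.94 to 4.94). The list medians were 1.7 for PBS over untreated, 3.55 for E. coli over untreated and 0.91 for LGG over PBS. Whether pancreatic tissue or its RNA was carried over during dissection was not tested.

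**Figure D3:**
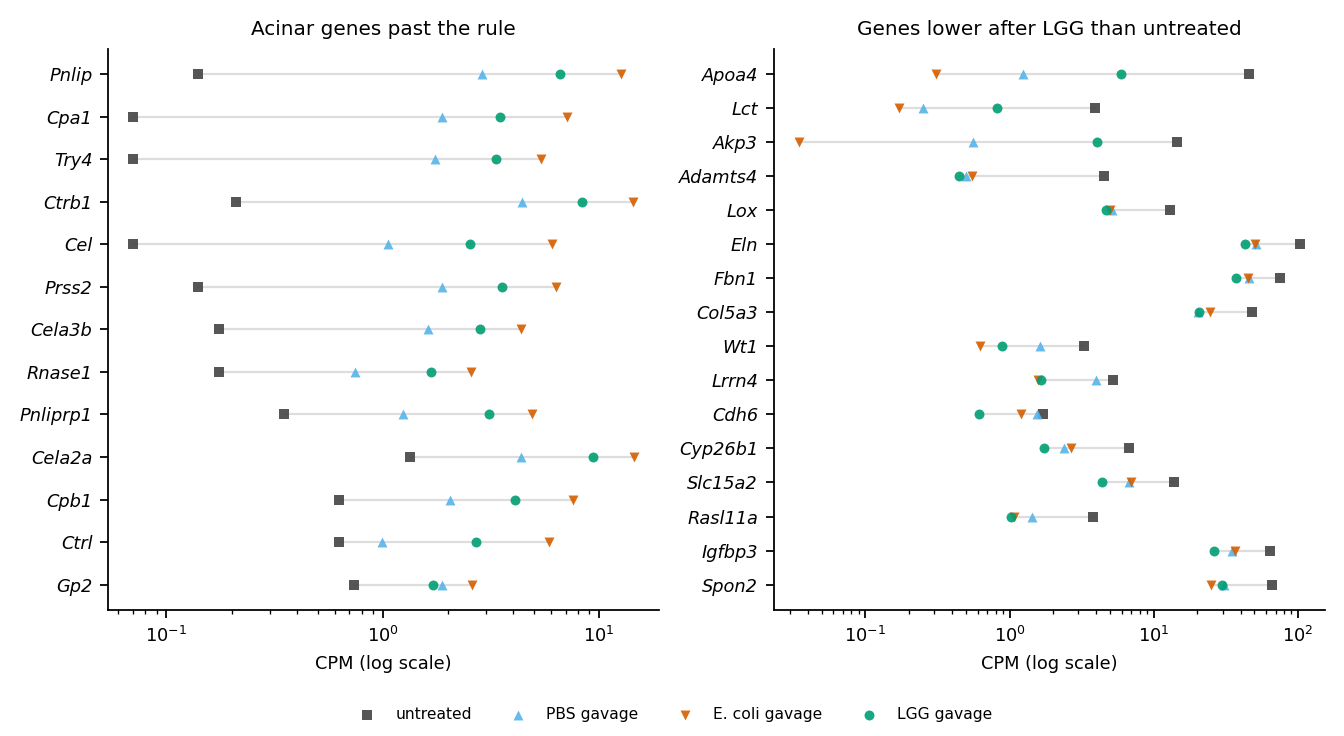
CPM (log scale) in the 4 libraries for the 13 acinar genes past the rule (left) and for 16 genes lower in the LGG library (right), 1 symbol per library. On the left the untreated library is the lowest for every gene shown; on the right it is the highest, and for Apoa4, Lct and Akp3 the LGG library lies between it and the PBS and E. coli libraries.

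Genes of small intestinal enterocytes and of the proximal colon had medians below 0. Of 29 measured genes of small intestinal enterocytes, 3 were lower past the rule and none higher, beside 0.588% of all genes lower, and 11 of 29 had a ratio above 0 and 18 below, with a median of -0.34. Apoa4, an apolipoprotein of fat absorption (NM_007468, mm9 chromosome 9, 46048927 to 46051541), was at 45.8 CPM without treatment and 5.95 CPM after LGG, beside 1.25 CPM with PBS and 0.310 CPM with E. coli, a ratio of -2.94 (interval -3.18 to -2.72). Lct, the lactase of the brush border, was at 3.92 (untreated), 0.249 (PBS), 0.172 (E. coli) and 0.820 CPM (LGG), a ratio of -2.23 (interval -2.96 to -1.61). It was under 1 CPM in each gavaged library and passed the filter through the untreated one, so its lower level was partly fixed by the filter. Akp3, an intestinal alkaline phosphatase, was at 14.6 (untreated), 0.561 (PBS), 0.0344 (E. coli) and 4.03 CPM (LGG), a ratio of -1.85 (interval -2.16 to -1.56). In all 3 genes the untreated library was the highest and the LGG library stood between it and the other gavaged libraries.

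Of 14 measured genes of the proximal colon, 3 had a ratio above 0 and 11 below, with a median of -0.54. Only Apoa4 was lower past the rule, 1 of 14, beside 0.588% of all genes lower. With library totals 3 were lower past it, beside 133 of 14458 genes. When centred by length 2 were lower past it, beside 81 of 14450 genes. The homeobox gene Hoxb6 was at 33.1 (untreated), 11.7 (PBS), 7.95 (E. coli) and 17 CPM (LGG), a ratio of -0.96, and Osr2, a transcription factor, at 57 (untreated), 22.8 (PBS), 17.1 (E. coli) and 30.1 CPM (LGG), a ratio of -0.92; both are named after their values were seen. Of 16 distal genes, 9 had a ratio above 0 and 7 below, with a median of 0.30. Past the rule 1 gene was lower, beside the same 0.588%. That gene, Hoxd10, ran against the list median, at 8.69 (untreated), 4.86 (PBS), 6.75 (E. coli) and 3.96 CPM (LGG), a ratio of -1.13 (interval -1.46 to -0.81), whereas Hoxb13, a distal homeobox gene named after its values were seen, was at 134 (untreated), 248 (PBS), 286 (E. coli) and 203 CPM (LGG), a ratio of 0.60. For PBS over untreated, E. coli over untreated and LGG over PBS, the medians of the proximal list were -1.04, -1.33 and 0.41, those of the distal list 0.25, 0.40 and -0.041 and those of the small intestinal list -0.72, -0.81 and 0.30. By these medians LGG stood below untreated but above PBS in the proximal and small intestinal lists. The labels give the length of the piece and not its place along the colon, and the part of that place in these values was not tested.

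Of 36 measured genes of collagen and matrix, 4 were lower past the rule and none higher, beside 0.588% of all genes lower, and 2 of 36 had a ratio above 0 and 34 below, with a median of -0.30. Adamts4, a protease that cleaves proteoglycans (NM_172845, mm9 chromosome 1, 173180553 to 173190053), was at 4.55 CPM without treatment and 0.444 CPM after LGG, beside 0.499 CPM with PBS and 0.551 CPM with E. coli, a ratio of -3.31 (interval -4.31 to -2.53). It rests on 130, 8, 16 and 13 counts in the untreated, PBS, E. coli and LGG libraries. Adamts4 was under 1 CPM in each gavaged library and passed the filter through the untreated one. Its lower level, and its place in the tally, were thus partly fixed by the filter. Lox, which cross-links collagen and elastin, was at 13 (untreated), 5.17 (PBS), 4.99 (E. coli) and 4.65 CPM (LGG), a ratio of -1.48 (interval -1.78 to -1.2). Eln, elastin itself, was at 103 (untreated), 51.4 (PBS), 50.1 (E. coli) and 42.9 CPM (LGG), a ratio of -1.26 (interval -1.36 to -1.17), and Fbn1, fibrillin of the same elastic fibres, was at 75 (untreated), 45.9 (PBS), 45.3 (E. coli) and 37.4 CPM (LGG), a ratio of -1.0 (interval -1.11 to -0.90). Fbn1 was short of the rule when centred by length (-0.87) and with DESeq2 size factors (-0.9987), which leaves 3. The 3 gavaged libraries lay close together below the untreated library in each of these genes. The list medians over untreated were -0.28 for PBS and -0.20 for E. coli, and the median of LGG over PBS was -0.068.

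Mesothelium, the outer lining of the gut, had 3 of 14 measured genes lower past the rule and none higher, beside 0.588% of all genes lower, and 2 of 14 had a ratio above 0 and 12 below, with a median of -0.51. Wt1, a transcription factor of mesothelium, was at 3.29 (untreated), 1.62 (PBS), 0.620 (E. coli) and 0.889 CPM (LGG), a ratio of -1.87 (interval -2.58 to -1.25). Lrrn4 was at 5.26 (untreated), 3.99 (PBS), 1.58 (E. coli) and 1.64 CPM (LGG), a ratio of -1.67 (interval -2.18 to -1.2), and the cadherin Cdh6 at 1.72 (untreated), 1.56 (PBS), 1.2 (E. coli) and 0.615 CPM (LGG), a ratio of -1.46 (interval -2.35 to -0.68). Without the epithelial genes Krt19 and Dpp4, 13 genes of the list summed to 98.6 CPM in the untreated library, 94.7 with PBS, 68.9 with E. coli and 70.1 with LGG, and none was at 0 in all libraries. The PBS library was thus close to the untreated one and the LGG library close to the E. coli one. How much serosa each piece kept was not tested.

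Other genes low in the LGG library that the naming rule took were Cyp26b1, which breaks down retinoic acid, at 6.69 (untreated), 2.37 (PBS), 2.69 (E. coli) and 1.74 CPM (LGG) and a ratio of -1.93 (interval -2.42 to -1.49), and Slc15a2, a peptide transporter, at 13.9 (untreated), 6.73 (PBS), 6.95 (E. coli) and 4.37 CPM (LGG) and a ratio of -1.66 (interval -1.96 to -1.37). Rasl11a, a small GTPase, was at 3.82 (untreated), 1.43 (PBS), 1.07 (E. coli) and 1.03 CPM (LGG), a ratio of -1.88 (interval -2.53 to -1.3). Igfbp3, which binds insulin-like growth factors, was at 64.5 (untreated), 34.6 (PBS), 36.4 (E. coli) and 26.1 CPM (LGG), a ratio of -1.3 (interval -1.43 to -1.18). The collagen gene Col5a3 was at 48.2 (untreated), 20.4 (PBS), 24.4 (E. coli) and 20.5 CPM (LGG), a ratio of -1.23, and the matrix protein gene Spon2 at 65.7 (untreated), 30.7 (PBS), 25.1 (E. coli) and 29.7 CPM (LGG), a ratio of -1.14. For all 6 the untreated library was the highest of the 4.

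Of 44 measured genes of the Nrf2 pathway, none was higher and none lower past the rule, beside 1.04% of all genes. None among 44 is near that share, so it is not a result about these genes. Ratios were above 0 for 33 of 44 and below 0 for 11, with a median of 0.10, which scaling to library totals took to -0.00077. The factor Nfe2l2 was at 208 (untreated), 202 (PBS), 202 (E. coli) and 211 CPM (LGG), a ratio of 0.018 (interval -0.033 to 0.07), and its inhibitor Keap1 at 74.9 (untreated), 71.8 (PBS), 76.6 (E. coli) and 77.6 CPM (LGG), a ratio of 0.052 (interval -0.034 to 0.14). The classical target Nqo1, a quinone reductase, was at 33.5 (untreated), 27.4 (PBS), 26.1 (E. coli) and 29.2 CPM (LGG), a ratio of -0.20 (interval -0.33 to -0.062). Hmox1, haem oxygenase, was at 4.55 (untreated), 5.17 (PBS), 4.23 (E. coli) and 4.51 CPM (LGG), a ratio of -0.014 (interval -0.37 to 0.35).

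The subunits of the enzyme that makes glutathione had ratios of opposite sign, with Gclc at 101 (untreated), 92.8 (PBS), 90.4 (E. coli) and 91.2 CPM (LGG) and a ratio of -0.15 (interval -0.23 to -0.076), and Gclm at 50.8 (untreated), 56.3 (PBS), 55.2 (E. coli) and 61.6 CPM (LGG) and a ratio of 0.28 (interval 0.18 to 0.38). Txnrd1, thioredoxin reductase, was at 281 (untreated), 329.6 (PBS), 324 (E. coli) and 309 CPM (LGG), a ratio of 0.13 (interval 0.091 to 0.18). Srxn1, which repairs oxidised peroxiredoxins, was at 136 (untreated), 158 (PBS), 150.4 (E. coli) and 171 CPM (LGG), a ratio of 0.33 (interval 0.27 to 0.39), the highest of the 8 genes followed here. The ferritin chains Fth1 and Ftl1, the most counted genes of the list, had ratios of 0.032 and 0.33. For the Nrf2 list the list medians were 0.13 for PBS over untreated, 0.079 for E. coli over untreated and 0.048 for LGG over PBS.

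Of 20 enzymes that remove peroxide and superoxide, 1 was higher past the rule, beside 0.457% of all genes, and 14 of 20 had a ratio above 0 and 6 below, with a median of 0.18, which became 0.077 with library totals and 0.068 when centred by length. Prdx6, a peroxiredoxin that also acts on phospholipids (NM_007453, mm9 chromosome 1, 163170243 to 163181297), was at 792 CPM without treatment and 1660.0 CPM after LGG, beside 2242 CPM with PBS and 2387 CPM with E. coli, a ratio of 1.07 (interval 1.04 to 1.09). The untreated library was the low one, and LGG stood below PBS and E. coli. Scaled to library totals its ratio was 0.97, short of the rule. The oxidases that make superoxide and peroxide had no gene past the rule among 12, with a median of 0.13; Noxo1, an organiser of the epithelial oxidase, was at 69.4 (untreated), 92.5 (PBS), 92.9 (E. coli) and 86.7 CPM (LGG), and the GTPase Rac1 at 354 (untreated), 404 (PBS), 419 (E. coli) and 408 CPM (LGG).

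**Figure D4:**
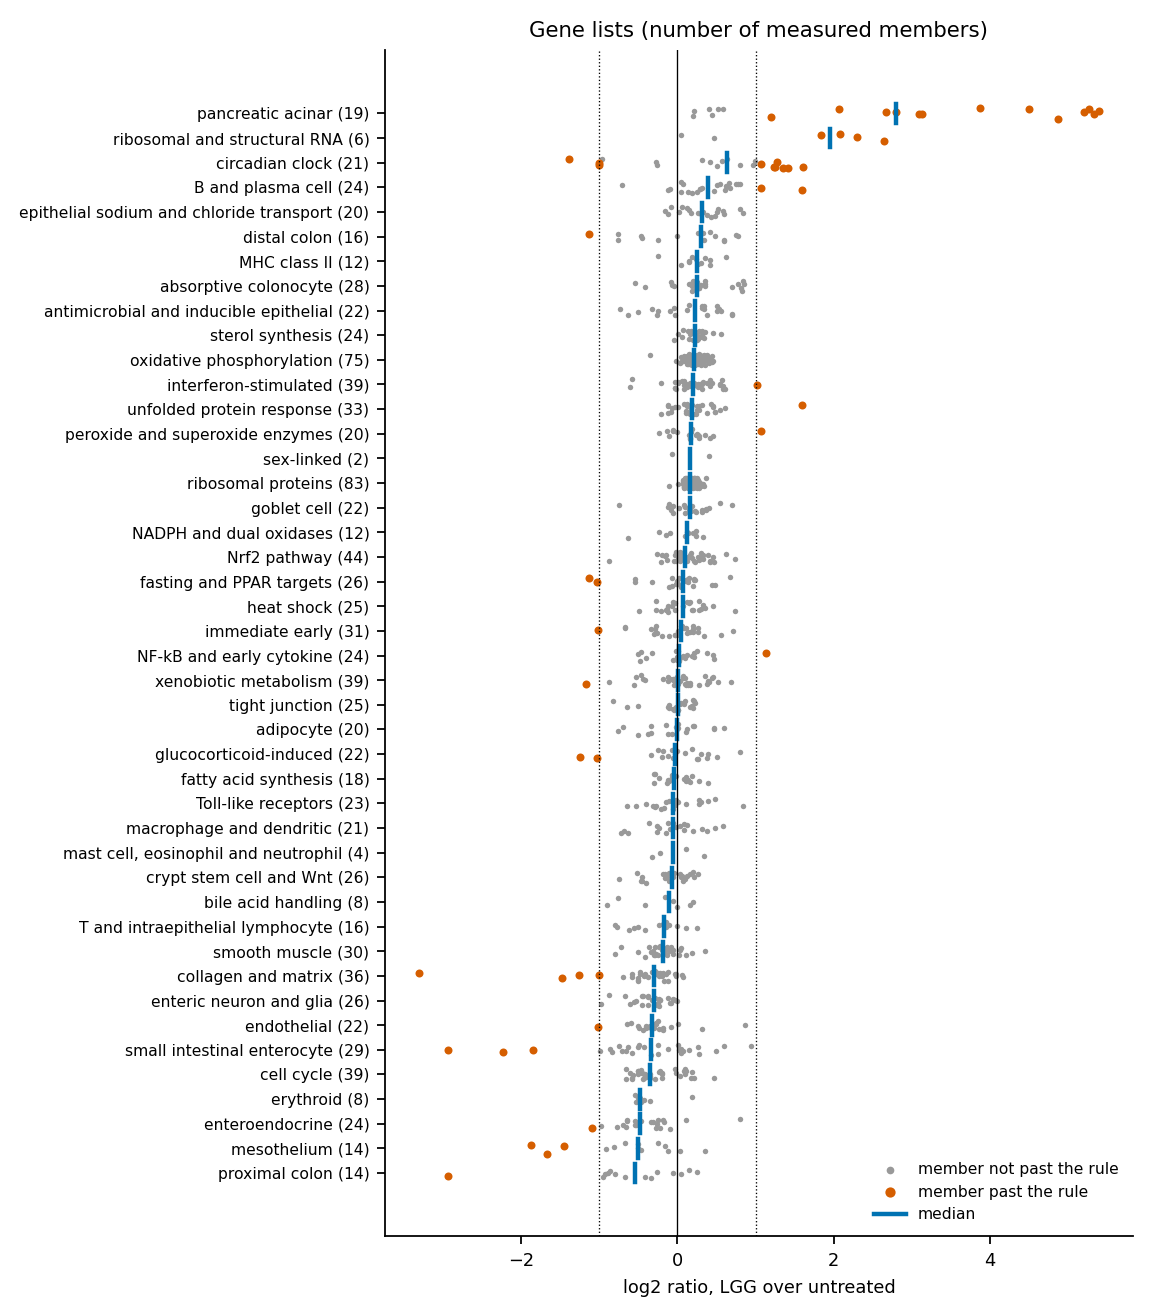
Log2 ratio of LGG over untreated for the measured members of 44 gene lists, 1 point per gene, with orange points past the rule, blue bars at the list medians and dotted lines at a 2-fold difference. The acinar, structural RNA and clock lists have the highest medians (2.80, 1.96 and 0.63), and the mesothelium and proximal colon lists the lowest (-0.51 and -0.54).

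Immune lists differed in sign. Genes of B and plasma cells had 2 of 24 members higher past the rule, beside 0.457% of all genes, and 21 of 24 had a ratio above 0 and 3 below, with a median of 0.39. Derl3, which clears misfolded protein in plasma cells, was at 0.420 (untreated), 1.5 (PBS), 1.41 (E. coli) and 1.3 CPM (LGG), a ratio of 1.59 (interval 0.66 to 2.7), and Cr2, a complement receptor of B cells, at 2.31 (untreated), 4.86 (PBS), 5.92 (E. coli) and 4.89 CPM (LGG), a ratio of 1.07 (interval 0.65 to 1.52). Cr2 was short of the rule with library totals (0.97). Derl3 was under 1 CPM in the untreated library and passed the filter through the gavaged ones. Its higher level, and its place in the tally, were thus partly fixed by the filter. Of 12 genes of MHC class II, which present antigen to T cells, none was past the rule, and 11 of 12 had a ratio above 0 and 1 below, with a median of 0.25; the invariant chain gene Cd74 was at 191 (untreated), 245 (PBS), 261 (E. coli) and 225 CPM (LGG) and the protease Ctss at 269.7 (untreated), 365 (PBS), 372 (E. coli) and 361 CPM (LGG). Genes of T and intraepithelial lymphocytes had none of 16 past the rule, and 2 of 16 had a ratio above 0 and 14 below, with a median of -0.17, with Thy1 at 19.4 (untreated), 15.5 (PBS), 13.2 (E. coli) and 12.6 CPM (LGG) and Foxp3 at 7.25 (untreated), 7.85 (PBS), 7.61 (E. coli) and 7.24 CPM (LGG). A further 17 of the 33 listed genes of T and intraepithelial lymphocytes fell below the filter, among them Cd3d and Cd8a. For PBS over untreated, E. coli over untreated and LGG over PBS, the B and plasma cell medians were 0.66, 0.71 and -0.16 and those of MHC class II 0.32, 0.51 and -0.11.

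Genes induced by interferon had 1 of 39 members higher past the rule, beside 0.457% of all genes, and 32 of 39 had a ratio above 0 and 7 below, with a median of 0.20. It was Ifit3, an antiviral protein, at 5.19 (untreated), 9.6 (PBS), 8.88 (E. coli) and 10.5 CPM (LGG), a ratio of 1.01 (interval 0.73 to 1.31). It was short of the rule with library totals (0.92), centred by length (0.96) and with a prior of 5 counts (0.99), so that none of the list was then past it. The interferon medians were 0.25 for PBS over untreated, 0.11 for E. coli over untreated and -0.040 for LGG over PBS. Genes of NF-kB and early cytokines, the usual early response to bacteria, had 1 of 24 higher past the rule, beside 0.457% of all genes. Of the 24, 14 had a ratio above 0 and 10 below, with a median of 0.026, which became -0.074 with library totals. A further 11 of the 35 listed genes fell below the filter, among them Il1b, Il6, Tnf, Cxcl1 and Ccl2. The median thus does not cover them. The gene past the rule was the chemokine Cxcl10, with 22, 26, 34 and 50 counts in the untreated, PBS, E. coli and LGG libraries. Its ratio was 1.13 (interval 0.40 to 1.94), and it was short of the rule when centred by length (0.95) and with a prior of 5 counts (0.9955). Cxcl10 was under 1 CPM in the untreated library and passed the filter through the gavaged ones, so its higher level was partly fixed by the filter. Toll-like receptors and their adaptors had none of 23 past the rule, and their median was -0.052; Tollip, an inhibitor of the pathway, was at 96.3 (untreated), 92.2 (PBS), 86.5 (E. coli) and 96.4 CPM (LGG) and the kinase Irak1 at 74.1 (untreated), 78.3 (PBS), 76.1 (E. coli) and 72.6 CPM (LGG).

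Macrophage and dendritic genes had none of 21 past the rule, and their median was -0.053, with the lysozyme gene Lyz2 at 70.5 (untreated), 92.5 (PBS), 91.7 (E. coli) and 87.6 CPM (LGG) and the receptor gene Mertk at 42.5 (untreated), 42.2 (PBS), 44.1 (E. coli) and 41 CPM (LGG). The list for mast cells, eosinophils and neutrophils had 4 measured genes, none past the rule, with Siglec5 at 3.19 (untreated), 2.8 (PBS), 2.75 (E. coli) and 2.73 CPM (LGG) and Alox15 at 2.84 (untreated), 3.36 (PBS), 1.2 (E. coli) and 2.26 CPM (LGG). Its median was -0.058, and 0.099 without the expression filter. Of 31 immediate early genes, which answer growth factors and stress, 19 had a ratio above 0 and 12 below. Their median was 0.048, which became -0.051 with library totals. Past the rule 1 gene was lower, beside 0.588% of all genes. It was Egr1, a zinc finger factor, at 55.3 (untreated), 29.5 (PBS), 23.2 (E. coli) and 27.3 CPM (LGG), a ratio of -1.02 (interval -1.15 to -0.90).

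Of 22 genes induced by glucocorticoids, 2 were lower past the rule, beside 0.588% of all genes, and 9 of 22 had a ratio above 0 and 13 below, with a median of -0.029. Klf15, a factor that also follows fasting and the clock, was at 6.34 (untreated), 3.68 (PBS), 3.44 (E. coli) and 2.67 CPM (LGG), a ratio of -1.24 (interval -1.65 to -0.86). Pdk4, which limits glucose oxidation in fasting, was at 13.1 (untreated), 4.86 (PBS), 6.13 (E. coli) and 6.39 CPM (LGG), a ratio of -1.03 (interval -1.3 to -0.78), and was short of the rule when centred by length (-0.99). Of 26 fasting and PPAR targets, Pdk4 and Vnn1 were lower past the rule, beside the same 0.588%, and 16 of 26 had a ratio above 0 and 10 below, with a median of 0.073, which became -0.026 with library totals and -0.031 when centred by transcript length. Vnn1, a pantetheinase, was at 4.13 (untreated), 1.37 (PBS), 1.51 (E. coli) and 1.88 CPM (LGG), a ratio of -1.13 (interval -1.63 to -0.66).

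Sterol synthesis had none of 24 genes past the rule, while 23 of 24 had a ratio above 0 and 1 below, with a median of 0.23. Its medians were 0.33 for PBS over untreated, 0.32 for E. coli over untreated and -0.081 for LGG over PBS. Fatty acid synthesis had none of 18 past the rule, and their median was -0.044, which became 0.050 when centred by length, with Scd2 at 1192 (untreated), 1692 (PBS), 1639 (E. coli) and 1266 CPM (LGG) and Acly at 383 (untreated), 533 (PBS), 516 (E. coli) and 414 CPM (LGG). In the list named xenobiotic metabolism 1 of 39 genes was lower past the rule, beside 0.588% of all genes. It was Ugt8a, at 4.62 (untreated), 1.12 (PBS), 1.51 (E. coli) and 2.05 CPM (LGG) and a ratio of -1.17 (interval -1.64 to -0.72). Whether Ugt8a acts on xenobiotics was not tested. The median of that list was 0.0077, and -0.092 with library totals, -0.0060 with upper-quartile factors and -0.016 without the filter. Bile acid handling had none of 8 past the rule, and their median was -0.11, or -0.21 with library totals and -0.23 when centred by length. Each of these settings left 1 gene lower past the rule, beside 133 of 14458 genes with library totals and 81 of 14450 centred by length. The nuclear receptor Vdr was at 453 (untreated), 510.0 (PBS), 549 (E. coli) and 519 CPM (LGG) and the exporter Abcg2 at 113 (untreated), 93.5 (PBS), 94.4 (E. coli) and 112 CPM (LGG).

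The unfolded protein response had Derl3, described above with its filter limit, as the 1 of 33 genes higher past the rule, beside 0.457% of all genes. Of the 33, 26 had a ratio above 0 and 7 below, with a median of 0.18. Heat shock genes had none of 25 past the rule, and their median was 0.073, or -0.027 with library totals; the chaperones Hspa8 and Hsp90ab1 were at 1604 (untreated), 1676 (PBS), 1431 (E. coli) and 1481 CPM (LGG) and 1253 (untreated), 1590.0 (PBS), 1549 (E. coli) and 1538 CPM (LGG), with ratios of -0.12 and 0.30. Cell cycle genes had none of 39 past the rule, while 10 of 39 had a ratio above 0 and 29 below, with a median of -0.35. The cell cycle medians were -0.32 for PBS over untreated, -0.29 for E. coli over untreated and -0.029 for LGG over PBS. Mki67, a marker of dividing cells, was at 148 (untreated), 111 (PBS), 118 (E. coli) and 98.9 CPM (LGG), a ratio of -0.58 (interval -0.65 to -0.51), and Pcna, a clamp of DNA replication, at 109 (untreated), 122 (PBS), 112 (E. coli) and 112 CPM (LGG), a ratio of 0.033 (interval -0.038 to 0.10). The crypt stem cell and Wnt list had none of 26 past the rule, and their median was -0.065, with Prom1 at 283 (untreated), 247 (PBS), 235 (E. coli) and 309 CPM (LGG) and Slc12a2 at 379 (untreated), 332 (PBS), 337 (E. coli) and 339 CPM (LGG).

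In the epithelium, absorptive colonocyte genes had none of 28 past the rule, while 23 of 28 had a ratio above 0 and 5 below, with a median of 0.25. Krt8, a keratin of the colon epithelium, was at 4447 (untreated), 5283 (PBS), 5069 (E. coli) and 5471 CPM (LGG) and its partner Krt19 at 2779 (untreated), 3359 (PBS), 3292 (E. coli) and 3552 CPM (LGG). Sodium and chloride transport had none of 20 past the rule, while 17 of 20 had a ratio above 0 and 3 below, with a median of 0.31, with the sodium pump subunit Atp1b1 at a ratio of 0.51. The transport medians were 0.35 for PBS over untreated, 0.37 for E. coli over untreated and -0.054 for LGG over PBS. Goblet cell genes had none of 22 past the rule, and their median was 0.16: Muc2, with the values given above, had a ratio of -0.11, and Fcgbp, another protein of the mucus, was at 5367 (untreated), 6903 (PBS), 6725 (E. coli) and 6341 CPM (LGG), a ratio of 0.24.

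Antimicrobial and inducible epithelial genes had none of 22 past the rule, and their median was 0.23. Lypd8, which keeps flagellated bacteria from the epithelium, was at 4045 (untreated), 6014 (PBS), 6201 (E. coli) and 5736 CPM (LGG), a ratio of 0.50 (interval 0.49 to 0.51), and Pigr, which carries IgA into the lumen, was at 2825 (untreated), 3423 (PBS), 3578 (E. coli) and 3120.0 CPM (LGG), a ratio of 0.14 (interval 0.13 to 0.16). Tight junction genes had none of 25 past the rule, and their median was 0.0058, or -0.094 with library totals and -0.0079 with upper-quartile factors; the claudins Cldn7 and Cldn3 were at 688 (untreated), 725 (PBS), 733 (E. coli) and 789 CPM (LGG) and at 448 (untreated), 408 (PBS), 432 (E. coli) and 524 CPM (LGG). Enteroendocrine genes had 1 of 24 lower past the rule, beside 0.588% of all genes. With library totals 2 were lower, beside 133 of 14458 genes. Of the 24, 2 had a ratio above 0 and 22 below, with a median of -0.48. The enteroendocrine medians were -0.53 for PBS over untreated, -0.60 for E. coli over untreated and 0.045 for LGG over PBS. Tph1, which makes serotonin in enterochromaffin cells, was at 18.7 (untreated), 10.1 (PBS), 8.47 (E. coli) and 8.75 CPM (LGG), a ratio of -1.1 (interval -1.32 to -0.88), with the untreated library the highest.

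Among the cells of the wall, enteric neuron and glia genes had none of 26 past the rule. With library totals 1 was lower, beside 133 of 14458 genes. All 26 had a ratio below 0, with a median of -0.30. The list medians were -0.37 for PBS over untreated, -0.62 for E. coli over untreated and -0.060 for LGG over PBS. The neuronal gene Uchl1 was at 33 (untreated), 22.4 (PBS), 21.4 (E. coli) and 27 CPM (LGG), a ratio of -0.29 (interval -0.43 to -0.15), and the glial gene Entpd2 at 38.8 (untreated), 33.5 (PBS), 33.9 (E. coli) and 37.4 CPM (LGG), a ratio of -0.053 (interval -0.17 to 0.069). Smooth muscle genes had none of 30 past the rule, and their median was -0.18; Myh11, the myosin of smooth muscle, was at 2929 (untreated), 2487 (PBS), 2303 (E. coli) and 2313 CPM (LGG) and the actin-binding Tagln at 1939 (untreated), 1991 (PBS), 1785 (E. coli) and 2101 CPM (LGG), with ratios of opposite sign, -0.34 and 0.12. Of 22 endothelial genes, 3 had a ratio above 0 and 19 below, with a median of -0.32. Past the rule 1 gene was lower, beside 0.588% of all genes. It was Prox1, a factor of lymphatic endothelium that other cell types also express, at 3.33 (untreated), 1.87 (PBS), 1.51 (E. coli) and 1.64 CPM (LGG), a ratio of -1.01 (interval -1.55 to -0.51), and was short of the rule when centred by length (-0.97) and with a prior of 5 counts (-0.95). No erythroid or adipocyte gene was past the rule. The 8 erythroid genes had a median of -0.47, with Car1, which colonocytes also express, at a ratio of 0.19 and the globin Hbb-b1, whose reads are shared with near-identical copies, at -0.48. The 20 adipocyte genes had a median of -0.0083, with Pck1 at 0.13 and Pnpla2 at 0.0073.

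Ribosomal and other structural RNA was high in the LGG library, with 4 of 6 measured rows higher past the rule, beside 0.457% of all genes, none lower and a median of 1.96. Rn45s, the precursor of ribosomal RNA, was at 2359.6 (untreated), 12739.6 (PBS), 5731 (E. coli) and 11566 CPM (LGG), which was 0.247% of counts in the untreated library and 1.13% in the LGG library. Lars2, a mitochondrial tRNA synthetase gene listed here because part of it resembles ribosomal RNA, was at 487 (untreated), 2397 (PBS), 1085 (E. coli) and 1733 CPM (LGG), a ratio of 1.83 (interval 1.81 to 1.86). The RNA parts of RNase MRP and RNase P, Rmrp and Rpph1, were at 1.05 (untreated), 3.86 (PBS), 2.2 (E. coli) and 6.63 CPM (LGG) and at 2.17 (untreated), 7.6 (PBS), 4.2 (E. coli) and 9.23 CPM (LGG), with ratios of 2.64 and 2.08. Most RNAs of this list lack a poly(A) tail. For this list the medians of PBS over untreated, E. coli over untreated and LGG over PBS were 1.83, 1.0 and -0.0021. The part of RNA selection in these values was not tested.

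The ratio of LGG over untreated also fell with the listed length of the transcript. In 10 length bins of about equal size, the bin with the shortest transcripts, 58 to 1158 bases, had a median of 0.18, with 77.8% of 1448 genes above 0. In the bin with the longest, from 6150 bases, the median was -0.14 and 22.8% of 1445 genes were above 0. The medians of the same bins were 0.057 and -0.034 for PBS over untreated, 0.073 and -0.056 for E. coli over untreated, and 0.10 and -0.098 for LGG over PBS. The cause of this trend was not tested.

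Ribosomal protein and oxidative phosphorylation genes had short listed transcripts, with median lengths of 677 and 676 bases, and medians above 0. The erythroid list, with a median length of 625.5 bases, went the other way, with a median of -0.47 and 7 of 8 genes below 0. Ribosomal protein genes had none of 83 past the rule, while 82 of 83 had a ratio above 0 and 1 below, with a median of 0.16; with ratios centred on the median of each length bin, the list median was -0.0021. Rplp0 was at 1364 (untreated), 1255 (PBS), 1392 (E. coli) and 1453 CPM (LGG) and Rps2 at 952 (untreated), 966 (PBS), 1039.6 (E. coli) and 1064 CPM (LGG). Oxidative phosphorylation genes had none of 75 past the rule, while 73 of 75 had a ratio above 0 and 2 below, with a median of 0.22, with the ATP synthase subunits Atp5b at a ratio of 0.12 and Atp5a1 at 0.075. When centred by length, the median of that list was nearer to 0 and still above it.

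**Figure D5:**
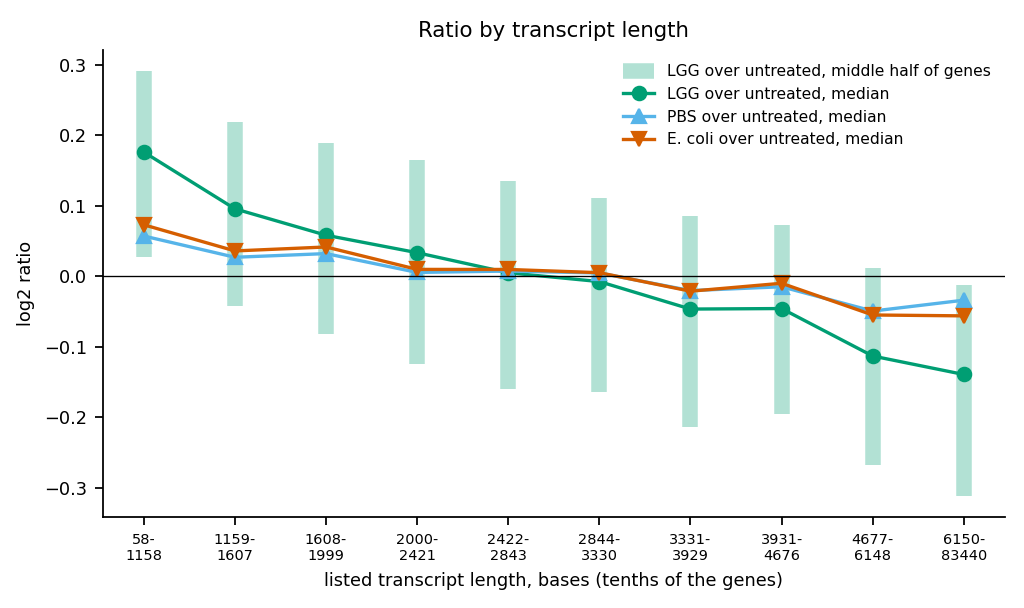
Median log2 ratio (vertical axis) by 10 bins of listed transcript length in bases (horizontal axis) for LGG, PBS and E. coli over untreated, with pale bars between the lower and upper quartiles of genes in LGG over untreated. The LGG line goes from 0.18 in the shortest bin to -0.14 in the longest, and the PBS and E. coli lines stay between 0.073 and -0.056.

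Of the 151 genes past the rule, 50 were in a list and 101 in none, while 7.18% of all 14450 genes were in a list. The lists were chosen with earlier results of these data known, so this tally supports nothing. By the naming rule, Cys1, a protein of the primary cilium, was at 4.2 (untreated), 14.3 (PBS), 14.7 (E. coli) and 15.2 CPM (LGG), a ratio of 1.85 (interval 1.56 to 2.16). The remaining genes here were chosen after their values were seen. Ccbl1, a cysteine conjugate lyase of kynurenine metabolism, was at 33.6 (untreated), 103 (PBS), 104 (E. coli) and 90.8 CPM (LGG), a ratio of 1.43 (interval 1.33 to 1.54). Upp1, which breaks down uridine, was at 26.6 (untreated), 71.5 (PBS), 75.9 (E. coli) and 58 CPM (LGG), a ratio of 1.13 (interval 1.0 to 1.25), and Tspan4, a tetraspanin, at 10.6 (untreated), 24.1 (PBS), 26.3 (E. coli) and 25.7 CPM (LGG), a ratio of 1.28 (interval 1.09 to 1.48). In these 4 genes the untreated library was the low one. For Btn1a1, a butyrophilin, the untreated library was also the lowest and the LGG library the highest. It was at 2.94 (untreated), 4.24 (PBS), 4.34 (E. coli) and 7.48 CPM (LGG), a ratio of 1.34 (interval 0.98 to 1.73). LGG over PBS was 0.82 (interval 0.42 to 1.24) for Btn1a1 and 0.085 (interval -0.15 to 0.32) for Cys1, neither past the rule.

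On the low side, C3, the central complement component, was at 188 (untreated), 147 (PBS), 84.1 (E. coli) and 91.9 CPM (LGG), a ratio of -1.03 (interval -1.1 to -0.96), with the PBS library nearer to the untreated one. It was short of the rule when centred by length (-0.92). Abca1, a cholesterol exporter, was at 29.7 (untreated), 17.4 (PBS), 14.5 (E. coli) and 14.1 CPM (LGG), a ratio of -1.08 (interval -1.25 to -0.91), and was likewise short of it (-0.94). Plat, tissue plasminogen activator, was at 19.7 (untreated), 9.91 (PBS), 8.09 (E. coli) and 9.16 CPM (LGG), a ratio of -1.1 (interval -1.32 to -0.89), and the chemokine receptor gene Cxcr4 at 9.74 (untreated), 5.36 (PBS), 6.33 (E. coli) and 4.65 CPM (LGG), a ratio of -1.06 (interval -1.37 to -0.77).

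The PBS library is the gavage control without bacteria. PBS against untreated had 209 of the 14450 genes past the rule, or 1.45%, more than the 151 of LGG against untreated. LGG against PBS had 40 genes past it, or 0.277%. These comparisons share libraries with the one described here, so their counts are not independent of it. The PBS library also held fewer total counts, 16289580 beside 29899371 in the LGG library, so ratios with PBS carry more counting error. The part of depth in these counts of genes was not tested. Per2 had a ratio of 1.84 for PBS over untreated and -0.24 for LGG over PBS. Apoa4 had -5.18 and 2.23, Pnlip 4.15 and 1.20, Adamts4 -3.14 and -0.16, and Prdx6 1.5 and -0.43 for the same pairs. With 1 library per condition, the response to LGG, the response to gavage and the difference between any 2 pieces of colon cannot be told apart.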

How the data were processed

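RNA sequencing of colon tissue was compared between 1 LGG and 1 untreated library, with the PBS and E. coli libraries beside them. Per the labels' protocols, frozen tissue was extracted with TRIzol, cleaned on DNase-treated columns and made into libraries with the TruSeq RNA v2 kit. HOMER and TopHat2 with the mouse build mm9 come from the submitters' processing notes; versions, roles and the use of strand are not stated there. Estimated counts (expected counts in steps of 0.5) were deposited by the authors as 1 table of 24016 rows, of which 4749 are 0 throughout; the counts were rounded to whole numbers.

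Effective library sizes came from TMM (edgeR 4.0.16, R 4.3.3), with factors of 1.05 (untreated), 0.985 (PBS), 0.989 (E. coli) and 0.979 (LGG). Python 3.11.15 (numpy 2.4.6; scipy 1.17.1; pandas 2.3.3; matplotlib 3.10.9) gave CPM, figures and log2 ratios, to which 0.5 counts, scaled by library, were added as a prior. Intervals are exact conditional binomial (Clopper-Pearson, 95%). Without molecular identifiers, reads are not independent molecules, and the intervals cover counting error only. The size rule asked for a log2 ratio of at least 1 in size, an interval that excluded 0 and a mean CPM of at least 1. The ratio and its intervals were tested on simulated counts that held counting error only, which is the error the intervals assume. That test cannot speak to the spread between mice or libraries. Its criterion for interval coverage was changed after its results were seen, from single effect sizes to all changed genes.

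The 44 gene lists, the comparison and the naming rule were chosen with earlier results of these data known. The rule took 15 higher and 15 lower protein-coding genes by the interval bound nearest 0, leaving out predicted genes, histones and immunoglobulin segments. In each list it took up to 4 members past the size rule with the largest ratios, or else the 2 with the highest mean CPM, and it always took 8 Nrf2 pathway genes. Alternatives were library totals, upper-quartile factors, DESeq2 1.42.0 size factors, other filters, priors and thresholds. A further 3 were added after seeing the data: the PBS library as control, ratios centred within length bins, and lists of other tissues left out. Some genes that the rule names are left unreported.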

Additional observations from a re-analysis of the deposited data

How the results depend on the processing

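The number of genes past the size rule, 66 higher and 85 lower, changed by more than 1.5 times in at least 1 direction under 6 settings. Without the expression filter it was 117 and 216, and with a mean CPM of at least 5 it was 24 and 27. A 1.5-fold threshold gave 237 and 524, and requiring the interval bound itself to pass 2-fold gave 31 and 17. Library totals gave 54 and 133. The PBS library as control, chosen after seeing the data, gave 26 and 14. The counts stayed within 1.5 times with DESeq2 size factors (66 and 84), upper-quartile factors (64 and 89), a prior of 5 counts (57 and 63), ratios centred within 10 length bins (57 and 81) and without the acinar, mesothelium, adipocyte, erythroid and small intestinal lists (53 and 79), the last 2 chosen after seeing the data. Of the 151 genes past the rule, none changed sign under the scaling, prior and length alternatives, but 47 fell short of the rule in at least 1 of them: 12 with library totals, 1 with DESeq2 size factors, 2 with upper-quartile factors, 31 with a prior of 5 counts and 25 centred by length. Among the genes described above these were Abca1, C3, Ciart, Cr2, Cxcl10, Fbn1, Ifit3, Nfil3, Pdk4, Prdx6 and Prox1, with the values given beside each. List medians that moved by more than the usual counting interval did so mostly with library totals: Nrf2 pathway -0.00077, peroxide and superoxide enzymes 0.077, colonocyte 0.15, sodium and chloride transport 0.22, bile acid -0.21, goblet cell 0.057, glucocorticoid -0.13, fasting and PPAR -0.026, sterol 0.13, fatty acid -0.14, xenobiotic -0.092, heat shock -0.027, unfolded protein 0.082, smooth muscle -0.28, matrix -0.40, tight junction -0.094, ribosomal protein 0.062, oxidative phosphorylation 0.12 and structural RNA 1.86. Centred by length, those of peroxide and superoxide enzymes (0.068), bile acid (-0.23), fasting and PPAR (-0.031), fatty acid (0.050), ribosomal protein (-0.0021), oxidative phosphorylation (0.063) and structural RNA (1.89) moved. A mean CPM of at least 5 took the acinar median to 0.58 and that of structural RNA to 1.83; the latter was 1.7 without a filter and 1.92 with a prior of 5. With the PBS library in place of the untreated one, the medians of 22 of 44 lists had another sign, the clock (0.63 and -0.093), B and plasma cell (0.39 and -0.16), proximal colon (-0.54 and 0.41) and structural RNA (1.96 and -0.0021) lists among them. The cause of these changes was not tested, apart from the filters and thresholds, which by construction change which genes can pass. Depth limits genes of 1 to 5 CPM. No paired analysis was possible because each condition has 1 library, and for the same reason no library could be left out.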
